A study of Mus musculus with 4 samples.

Results

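The genes described here are those of cholesterol synthesis and sterol regulation in 4T1-T cells, which derive from 4T1, a mammary carcinoma line of the mouse. Members were the 28 listed gene symbols, of 23481 genes in the count table. All 28 were found, Msmo1 under its older symbol Sc4mol, and all 28 passed the filter on low counts. RNA sequencing covered 2 groups of 2 libraries each, named A and B in the labels, so that a pair of values below gives library A and then library B of a group. The groups were Asns-silenced cells grown in DMEM without asparagine, and Asns-silenced cells grown in DMEM with it. Asns encodes the enzyme that makes asparagine, and its silencing was shared by every library. No unsilenced library was analysed here, and the labels name neither the silencing reagent nor separate cultures. P-values therefore measure the spread between these libraries, which may be technical.

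Cells make cholesterol from acetyl-CoA. The mevalonate pathway yields farnesyl pyrophosphate, pairs of which are joined to squalene, and squalene is closed to lanosterol and trimmed to cholesterol. The synthesis genes are under shared control of SREBP-2, a transcription factor held in the endoplasmic reticulum. When sterols are low, the escort protein SCAP carries it to the Golgi, where it is cut and released. When sterols are high, INSIG proteins retain SCAP, and Insig1 is itself a target of SREBP. Growing tumour cells use the pathway for membranes and for the lipid anchors of small GTPases. Synthesis genes outside the 28 were not analysed here.

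Promoters of 23 of the 28 members were in the RefSeq table (build GRCm38.p6), as windows of 300 bases around the start of the gene. Of these 5, chosen after their values were seen, are shown. Lpin1 is the member that passed the test, and Insig1 and Lss are those with the next lowest fold changes. Ebp is a member with a higher level without asparagine, and Hmgcs1 is the one whose window holds the sterol element core searched for. The windows lie at chr12:16610917-16611216 (minus strand) for Lpin1, chr5:28071162-28071461 (plus strand) for Insig1, chr10:76531355-76531654 (plus strand) for Lss, chrX:8193463-8193762 (minus strand) for Ebp and chr13:119690101-119690400 (plus strand) for Hmgcs1. Each is written 5′ to 3′ on the strand of its gene. Capitals mark the letters CCAAT, the NF-Y box, or their reverse complement ATTGG, and the letters TCACNCCAC, the core of the sterol regulatory element.
Lpin1: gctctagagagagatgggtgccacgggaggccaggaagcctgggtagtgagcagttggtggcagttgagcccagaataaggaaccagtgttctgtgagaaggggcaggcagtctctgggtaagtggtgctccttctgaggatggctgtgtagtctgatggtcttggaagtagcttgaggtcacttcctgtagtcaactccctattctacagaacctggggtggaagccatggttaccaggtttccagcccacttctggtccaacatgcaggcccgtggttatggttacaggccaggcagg
Insig1: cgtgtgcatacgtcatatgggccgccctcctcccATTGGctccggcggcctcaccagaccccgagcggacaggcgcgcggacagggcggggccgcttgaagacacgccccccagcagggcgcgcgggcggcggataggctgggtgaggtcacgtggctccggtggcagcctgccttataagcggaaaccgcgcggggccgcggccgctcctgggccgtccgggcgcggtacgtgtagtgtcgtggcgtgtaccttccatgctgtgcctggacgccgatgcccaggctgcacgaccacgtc
Lss: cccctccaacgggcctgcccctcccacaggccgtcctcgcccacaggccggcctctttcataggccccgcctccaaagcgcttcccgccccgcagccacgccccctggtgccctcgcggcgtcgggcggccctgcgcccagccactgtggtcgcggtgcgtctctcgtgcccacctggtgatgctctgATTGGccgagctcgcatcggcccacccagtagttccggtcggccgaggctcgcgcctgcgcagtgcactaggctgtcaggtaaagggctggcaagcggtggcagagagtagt
Ebp: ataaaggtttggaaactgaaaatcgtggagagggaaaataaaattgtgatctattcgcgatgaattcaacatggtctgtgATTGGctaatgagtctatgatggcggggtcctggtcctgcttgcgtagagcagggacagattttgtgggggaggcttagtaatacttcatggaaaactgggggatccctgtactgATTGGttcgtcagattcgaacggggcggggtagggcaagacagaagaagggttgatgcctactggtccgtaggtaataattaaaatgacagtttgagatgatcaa
Hmgcs1: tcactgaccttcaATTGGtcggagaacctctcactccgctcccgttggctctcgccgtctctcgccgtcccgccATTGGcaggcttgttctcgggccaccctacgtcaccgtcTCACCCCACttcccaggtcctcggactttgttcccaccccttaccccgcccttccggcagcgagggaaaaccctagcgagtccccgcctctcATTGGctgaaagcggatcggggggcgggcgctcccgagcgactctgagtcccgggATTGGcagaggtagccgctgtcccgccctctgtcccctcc

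The sterol element core, searched on both strands, was found in 1 of the 23 member promoters, that of Hmgcs1, and in 1.22% of all 27025 promoters in the table. CCAAT was found in 19 of the 23 (82.6%), against 37.9% of all promoters. The Sp1 box GGGCGG was found in 19 of the 23 (82.6%), against 35.9%, and the E-box CACGTG in 4 of the 23 (17.4%), against 7.24%. All promoters here means the first listed window of each gene of any type. They were not matched to the members in expression or base content, and no motif contains another. None of the 4 motifs was found in the Lpin1 window. Letters in a window are a description and do not show that a factor binds there. Only these exact letters were searched, so variant sites and sites outside the windows would be missed.

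Gene counts summed to 17977552 (A) and 22581543 (B) without asparagine, and to 23867011 (A) and 30260582 (B) with it. Library A without asparagine stood apart: HTSeq placed 56.6% of its reads outside annotated features, against 46.3% to 49.3% in the other 3 libraries, and the ribosomal RNA precursor Rn45s took 3.53% of its gene counts, against 0.884% to 1.66%. The members are therefore also given further on for library A or B without asparagine taken alone. Epithelial markers were present. Their summed level was 955 and 934 CPM (counts scaled to library size by TMM) without asparagine, against 777 and 862 CPM with it. Of the 8, 1 (Epcam, log2 fold change 0.68) was called higher in the edgeR test, against 0.771% of all genes. The fibroblast list summed to 18.5 and 23.3 CPM without asparagine, against 43.3 and 41.2 CPM with it, nearly all from Pdgfra. Of its 6 genes only Pdgfra passed the filter on low counts, and it was called lower, against 1.07% of all genes. Macrophage, endothelial and adipocyte lists each summed to at most 8.01 CPM in any library, with Adipoq at 0 counts in all 4. The part of these markers in the results was not tested.

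Transcripts of the cholesterol pathway were mostly lower without asparagine, by small amounts. Of the 28 members 23 had a fold change below 0 and 5 above, with a median of -0.21 on the log2 scale, while 48.6% of all 12843 genes tested were below 0 and their median was 0.01. A single member, Lpin1, fell, and none rose (edgeR quasi-likelihood test, Benjamini-Hochberg adjusted p threshold 0.05). That is 3.57% of members called lower, against 1.07% of all genes tested called lower and 0.771% called higher. At an unadjusted p under 0.05, 8 members (28.6%) were lower, against 9.48% of all genes, and 1 was higher, against 8.65%. DESeq2 called 4 members lower, against 2.11% of all genes, and 0 higher, with 193 of 12843 genes called higher. Both libraries without asparagine lay below both libraries with it for 20 members (71.4%), against 26.4% of all genes, and above them for 2 members, against 26.1%. In these bulk samples, fewer cells of one kind and less RNA per cell cannot be told apart.

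**Figure D1:**
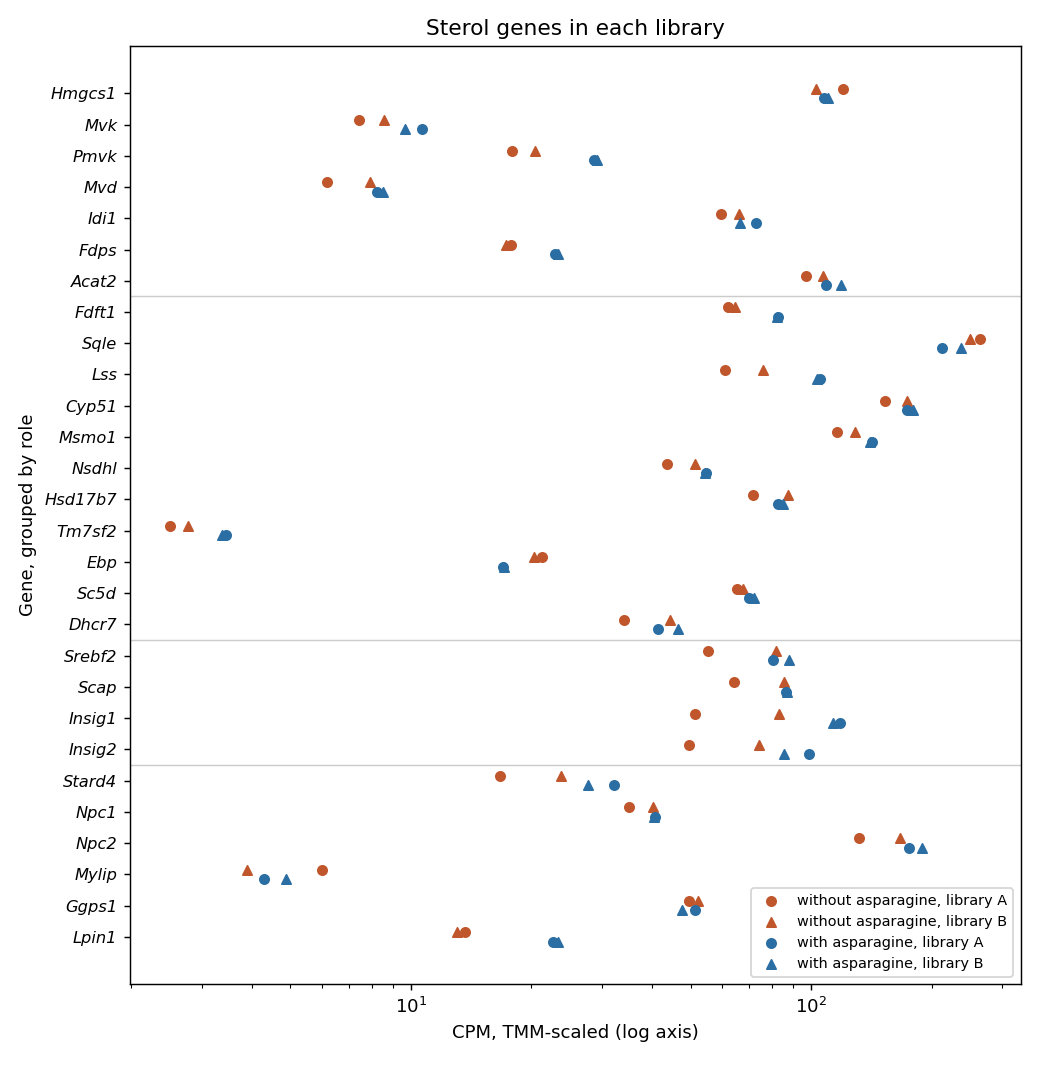
TMM-scaled CPM of each of the 28 genes (log axis) in the 4 libraries, without asparagine in orange and with asparagine in blue, circles for library A and triangles for library B. In 21 genes the orange circle (library A without asparagine) is the lowest of the 4 points.

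Per kilobase of exon, the members spanned a wide range of levels. Sqle, the squalene epoxidase, was highest at 92.9 ± 3.94 CPM per kb without asparagine and 81.4 ± 6.21 CPM per kb with it (SD, n = 2 each). Msmo1, a sterol methyl oxidase, followed at 59.7 ± 4.35 and 68.9 ± 0.434 CPM per kb without and with asparagine. Npc2, the soluble sterol carrier of the lysosome, had 45.2 ± 7.53 and 55.2 ± 3.12 CPM per kb in the same order. The lowest were Tm7sf2, a sterol reductase gene, at 1.56 ± 0.111 without and 2.01 ± 0.0322 CPM per kb with asparagine, and Mylip, which encodes a ubiquitin ligase for lipoprotein receptors, at 1.53 ± 0.460 and 1.42 ± 0.128. Without asparagine the levels of Tm7sf2 and Mylip did not differ beyond their spread. Lengths were those of merged exons in GENCODE M21, which may differ from the annotation the authors used.

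Lpin1 encodes lipin-1, a phosphatidate phosphatase that makes diacylglycerol for triglyceride synthesis and is a known target of SREBP. Libraries held 13.6 and 13.1 CPM without asparagine (A and B), against 22.7 and 23.4 CPM with it (A and B). The groups did not overlap, and libraries of a group lay within 1 CPM of each other. Means were 13.3 ± 0.400 CPM without and 23.0 ± 0.493 CPM with asparagine (SD, n = 2 each). This was a log2 fold change of -0.79 ± 0.12 (SE, edgeR adjusted p = 0.0320), which left 58.0% of the level with asparagine. Against both libraries with asparagine, the log2 fold change was -0.76 for library A without it alone and -0.82 for library B alone. The call was lost without library A with asparagine (log2 fold change -0.81) and without library B with asparagine (-0.77). Both fits left a single library with asparagine, and fewer genes were called over all genes than with all libraries. Lpin1 lies on chromosome 12 from 16535669 to 16610966 (GENCODE M21, GRCm38).

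All 4 genes of SREBP-2 and its regulators had a fold change below 0, against 48.6% of all genes, and 0 passed the edgeR test. At an unadjusted p under 0.05, 2 were lower, against 9.48% of all genes. DESeq2 called 1 lower, Insig1, against 2.11% of all genes. Insig1 had 51.3 and 83.2 CPM without asparagine (A and B), against 118 and 113 CPM with it (A and B). Its groups did not overlap, but the libraries without asparagine were far apart, and the log2 fold change was -0.78 ± 0.21 (SE, edgeR adjusted p = 0.137). Insig2, the related retention protein, had 49.6 and 74.1 CPM without asparagine, against 98.7 and 85.6 CPM with it, a log2 fold change of -0.57 ± 0.19 (adjusted p = 0.192). Library A was again the lowest of the 4. Srebf2, which encodes SREBP-2, had 55.3 and 81.6 CPM without asparagine (A and B), against 80.2 and 88.1 CPM with it, a log2 fold change of -0.30 (adjusted p = 0.420). Scap, the escort gene, had 64.2 and 85.3 CPM without asparagine, against 86.3 and 87.0 CPM with it (-0.21, adjusted p = 0.473). For Srebf2 the groups overlapped, and for Scap library B without asparagine lay just under both libraries with it. Library B stood above library A without asparagine by 0.70 for Insig1, 0.58 for Insig2, 0.56 for Srebf2 and 0.41 for Scap on the log2 scale, against differences of -0.06, -0.21, 0.13 and 0.01 between libraries B and A with asparagine. Insig1 lies on chromosome 5 from 28071363 to 28078662 and Insig2 on chromosome 1 from 121304353 to 121332589.

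The mevalonate pathway had 7 members, 6 of them below 0, against 48.6% of all genes. None passed the edgeR test, and 2 were lower at an unadjusted p under 0.05, against 9.48% of all genes. DESeq2 called 1 lower, Pmvk, against 2.11%. Pmvk, phosphomevalonate kinase, had 17.9 and 20.4 CPM without asparagine (A and B), against 28.7 and 29.2 CPM with it (A and B). The groups stood well apart, with a log2 fold change of -0.60 ± 0.12 (SE, edgeR adjusted p = 0.0738). Fdps, which makes farnesyl pyrophosphate, had 17.8 and 17.3 CPM without asparagine, against 22.9 and 23.3 CPM with it (-0.40 ± 0.12, adjusted p = 0.160). Its libraries agreed closely within each group. Mvk, mevalonate kinase, had a log2 fold change of -0.34, and Mvd, the decarboxylase that acts after Pmvk, -0.25. Idi1, the isomerase of isopentenyl pyrophosphate, and Acat2, a thiolase at the head of the pathway, lay nearer 0 at -0.14 and -0.15. Hmgcs1, the HMG-CoA synthase whose promoter holds the sterol element core, had 120 and 103 CPM without asparagine (A and B), against 107 and 110 CPM with it. Its groups overlapped, and the log2 fold change was 0.04 ± 0.11 (adjusted p = 0.894). Pmvk lies on chromosome 3 from 89454541 to 89469013, and Fdps on the same chromosome from 89093588 to 89101959.

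From squalene to cholesterol, 9 of 11 members were below 0, against 48.6% of all genes, and 2 above. None passed the edgeR test. At an unadjusted p under 0.05, 2 were lower, against 9.48% of all genes, and 1 was higher, against 8.65%. DESeq2 called 1 lower, Lss, against 2.11% of all genes. Fdft1, the squalene synthase, had 62.1 and 64.7 CPM without asparagine (A and B), against 82.5 and 81.9 CPM with it (log2 fold change -0.38 ± 0.10, SE, edgeR adjusted p = 0.134). Both libraries of each group lay close together and the groups did not overlap. Lss, the lanosterol synthase that closes the ring, had 60.9 and 76.0 CPM without asparagine, against 105 and 104 CPM with it (-0.61 ± 0.13, adjusted p = 0.0794). Sqle, the enzyme between these steps, lay on the other side of 0, with 264 and 249 CPM without asparagine, against 212 and 236 CPM with it (0.19 ± 0.11, adjusted p = 0.389). Ebp, a sterol isomerase, had 21.3 and 20.3 CPM without asparagine, against 17.0 and 17.1 CPM with it (0.28 ± 0.12, adjusted p = 0.274). In Sqle and Ebp alone among the 28, both libraries without asparagine lay above both with it. The other 7 members, Cyp51, Msmo1, Nsdhl, Hsd17b7, Tm7sf2, Sc5d and Dhcr7, which demethylate, reduce and desaturate the ring, had log2 fold changes between -0.36 (Tm7sf2) and -0.08 (Hsd17b7), and the groups of Hsd17b7 and Dhcr7 overlapped. Fdft1 lies on chromosome 14 from 63145150 to 63179578 and Lss on chromosome 10 from 76531607 to 76555479. Sqle lies on chromosome 15 from 59315081 to 59331192 and Ebp on chromosome X from 8185329 to 8193512.

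Sterol carriers and branch genes were mixed. Stard4, a cytosolic sterol carrier, had 16.7 and 23.7 CPM without asparagine (A and B), against 32.2 and 27.6 CPM with it (log2 fold change -0.56 ± 0.18, SE, edgeR adjusted p = 0.184). Its groups did not overlap, and library A without asparagine was the lowest. Npc2 had 132 and 167 CPM without asparagine, against 175 and 190 CPM with it (-0.29, adjusted p = 0.320). Npc1, the membrane protein that takes cholesterol from Npc2, had 35.2 and 40.3 CPM without asparagine, against 40.7 and 40.6 CPM with it (-0.11, adjusted p = 0.653). Mylip had 5.995 and 3.89 CPM without asparagine, against 4.29 and 4.87 CPM with it, so that the groups overlapped (0.10 ± 0.25, adjusted p = 0.859). Ggps1, which makes geranylgeranyl pyrophosphate for protein prenylation, had 49.6 and 52.2 CPM without asparagine, against 51.1 and 47.6 CPM with it, again overlapping (0.04, adjusted p = 0.851). Stard4 lies on chromosome 18 from 33199355 to 33213862.

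**Figure D2:**
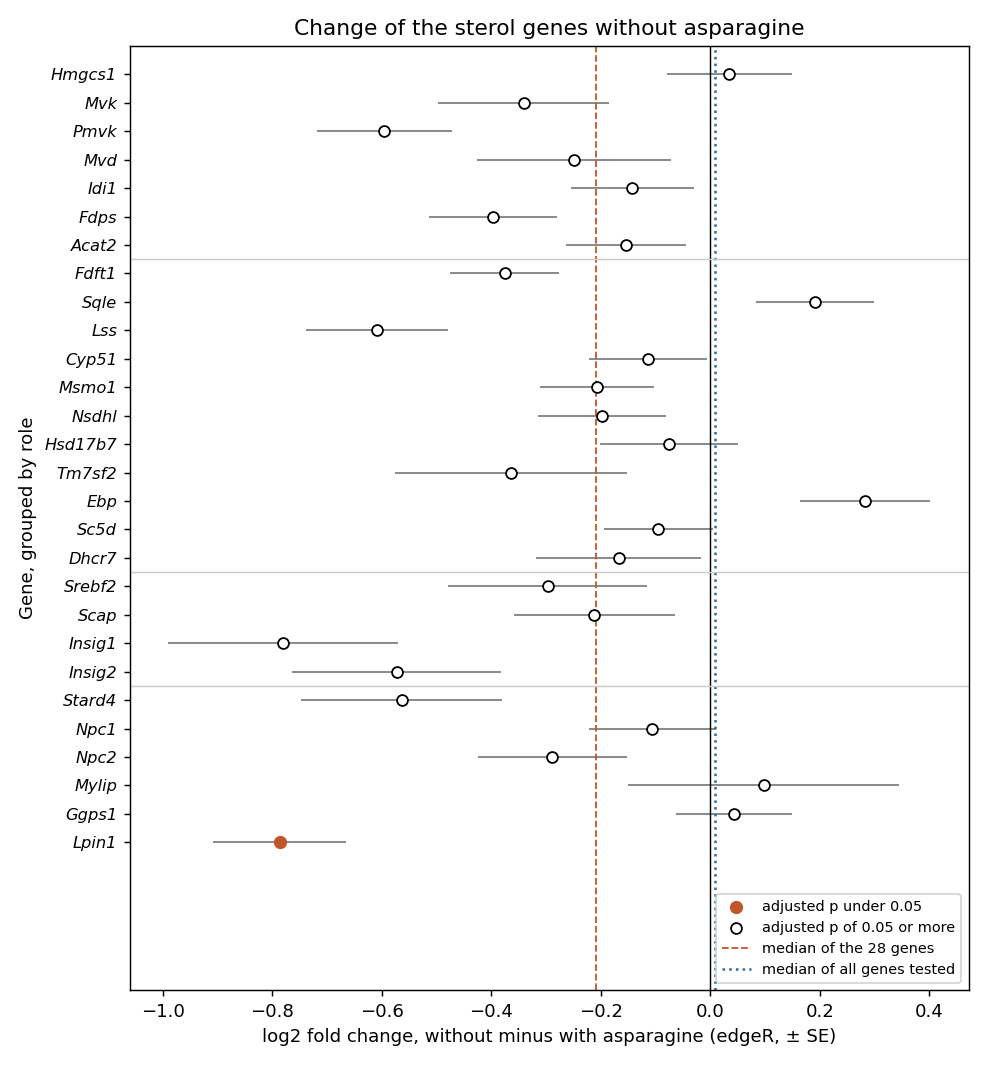
Log2 fold change, without minus with asparagine, of each gene with its SE from edgeR; Lpin1, the filled point at -0.79, is the member with an adjusted p under 0.05. The dashed line is the median of the 28 genes (-0.21) and the dotted line that of all genes tested (0.01).

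How far the members lay below the cells with asparagine differed between the libraries without it. Summed over the 28 members, the level was 1693 and 1919 CPM without asparagine (A and B), against 2053 and 2093 CPM with it (A and B). Library A was lower than library B of its group in 22 members and lower than all 3 other libraries in 21. With library A left out, 23 of 28 members were below 0 with a median of -0.09, and 8 members (28.6%) were called lower against 8.7% of all genes. These were Lpin1, Insig1, Insig2, Lss, Pmvk, Stard4, Fdps and Fdft1. With library B left out, 23 were below 0 with a median of -0.38, and 19 members (67.9%) were called lower against 21.6% of all genes, while 2, Sqle and Ebp, were called higher, against 18.9% of all genes. The 23 below 0 with library A left out were not all those below 0 with all libraries. Hsd17b7 (0.061) and Dhcr7 (0.0058) moved above 0, and Hmgcs1 (-0.083) and Mylip (-0.24) moved below. The fits with library A or B left out share the libraries with asparagine. In each, the single library left in a group was taken to vary as the other group did. The libraries without asparagine differed more, with a chi-square per degree of freedom of 34.8, against 3.89 between those with it. Calls with library A or B without asparagine left out therefore rest on too small a spread, and their counts may be too high.

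Values of single members show the same contrast between libraries A and B without asparagine. The log2 fold change of Insig1 was -1.18 for library A alone and -0.48 for library B alone, each against both libraries with asparagine. Insig2 had -0.90 and -0.31, and Stard4 -0.84 and -0.34. The value of Srebf2 was -0.61 for library A and -0.05 for library B, and those of Scap were -0.44 and -0.02 and of Npc2 -0.47 and -0.13 in the same order. Lss had -0.78 and -0.46, and Pmvk had -0.70 and -0.51. Fdps (-0.38 and -0.42), Fdft1 (-0.41 and -0.35) and Lpin1 (-0.76 and -0.82) differed least between the libraries among the 8 genes called with library A left out. The share of reads outside features and of Rn45s, both highest in library A, moved with the larger decreases, and their part in them was not tested. With a library with asparagine left out, 0 members were called, against 0.227% of all genes called lower without library A and 0.182% without library B, and 4 and 6 members had an unadjusted p under 0.05 and a fold change below 0, against 3.51% and 3.35% of all genes.

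**Figure D3:**
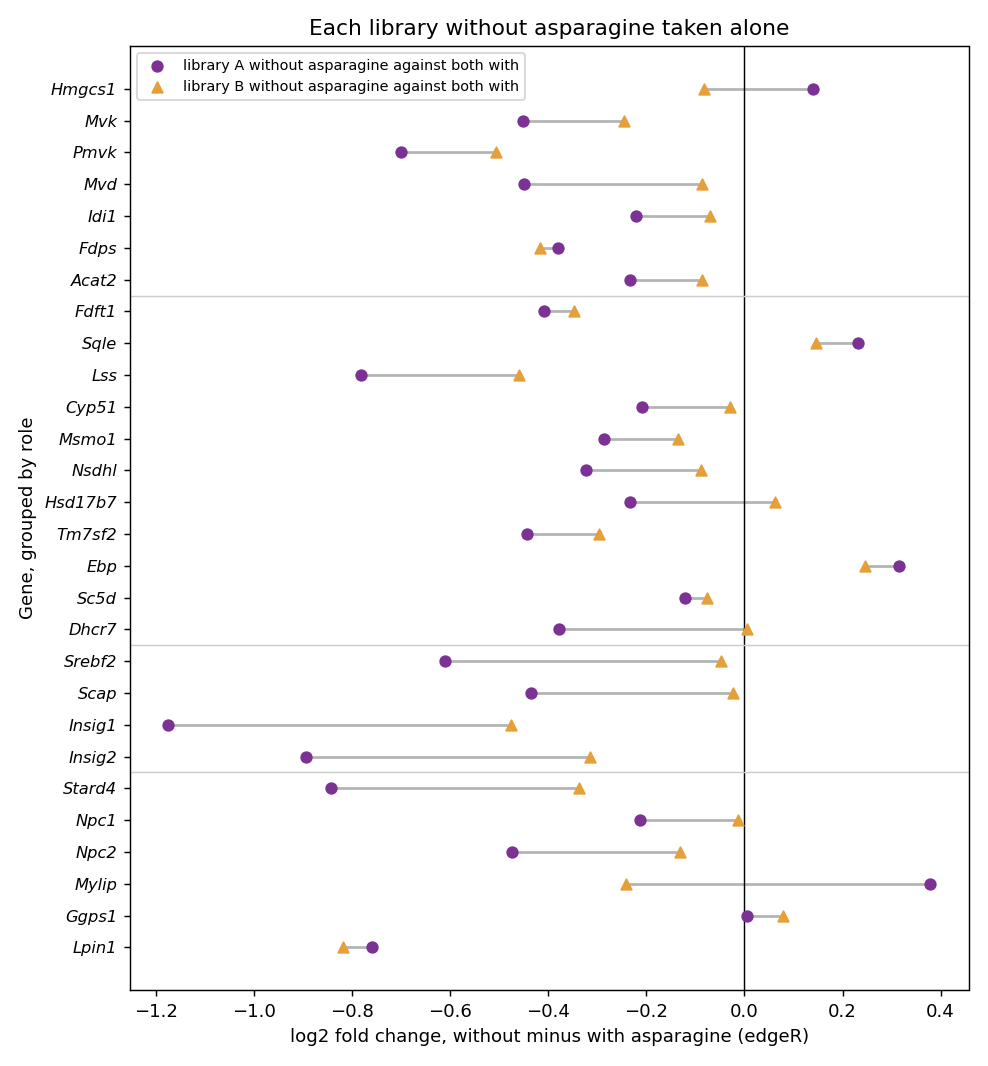
Log2 fold change of each gene against both libraries with asparagine, for library A without asparagine alone (purple circles) and library B alone (yellow triangles). Insig1 spans -1.18 to -0.48, while Fdps, Fdft1 and Lpin1 have both points close together.

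With all libraries kept, calls for the members depended on the test, the filter and the block. Lpin1 was the 1 member called under limma-voom, upper quartile scaling, DESeq2 size factors in edgeR and a filter of 5 CPM in 2 libraries. It was also the 1 called with the 10 most abundant genes left out. In these settings 0.88% to 1.18% of all genes were called lower. With the letter as a block edgeR called 6 members lower, against 3.68% of all genes. DESeq2 called 4 members lower, against 2.11% of all genes, adding Insig1, Lss and Pmvk to Lpin1 (adjusted p = 0.00615, 0.00853 and 0.0383). With no filter on low counts edgeR called 6 lower, against 3.63% of all genes, with Insig2 and Stard4 as the further members. The log2 fold changes were nearly unchanged in both, at -0.78 and -0.79 for Insig1 and -0.61 and -0.61 for Lss.

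Among neighbouring lipid pathways, calls were found in 1 list. In the list of SREBP-1 and fatty acid synthesis 12 of 15 genes were below 0, against 48.6% of all genes, with a median of -0.24. Of the 15 genes 2 fell, against 1.07% of all genes called lower, and 6 were lower at an unadjusted p under 0.05, against 9.48% of all genes. The genes that fell were Scd1 and Scd2, both stearoyl-CoA desaturases that make monounsaturated fatty acids. Scd1 had 42.2 and 58.0 CPM without asparagine (A and B), against 92.3 and 102 CPM with it (log2 fold change -0.96 ± 0.16, SE, edgeR adjusted p = 0.0391). Scd2 had 707 and 899 CPM without asparagine, against 1420 and 1455 CPM with it (-0.84 ± 0.14, adjusted p = 0.0369). The groups were well apart in both, with log2 fold changes for library A alone and library B alone of -1.21 and -0.75 for Scd1 and -1.03 and -0.68 for Scd2. The genes are close copies and may share reads. Without library A with asparagine the calls were lost, with log2 fold changes of -1.03 for Scd1 and -0.86 for Scd2. They were also lost without library B with asparagine, at -0.88 for Scd1 and -0.83 for Scd2. In both of these fits fewer genes were called over all genes than with all libraries. Leaving out library A or B without asparagine gave 5 and 9 of the 15 genes of this list called lower, against 8.7% and 21.6% of all genes.

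No gene of the other lists passed the edgeR test, against 1.07% of all genes called lower and 0.771% called higher. None was called by DESeq2, against 2.11% of all genes called lower. At an unadjusted p under 0.05 there were 2 lower and 1 higher of 13 in SREBP processing, 3 lower of 16 in esterification and LXR, and 0 of 16 in the isoprenoid branch, against 9.48% of all genes lower and 8.65% higher. SREBP processing and sterol sensing had 10 of 13 genes below 0, against 48.6% of all genes, and a median of -0.09. Its smallest p was that of Sec23a, a coat protein of the vesicles that leave the endoplasmic reticulum, with 81.6 and 72.8 CPM without asparagine (A and B), against 94.7 and 97.3 CPM with it, a log2 fold change of -0.31 (adjusted p = 0.201). Sterol esterification, oxysterols, export and LXR had 16 genes tested of 21, 10 of them below 0, with a median of -0.22. Lipa, the lysosomal acid lipase that frees cholesterol from its esters, had 20.8 and 31.2 CPM without asparagine, against 40.01 and 39.87 CPM with it (-0.61, adjusted p = 0.168). Its groups did not overlap, and library A without asparagine was the lowest (-0.94 for library A alone and -0.36 for library B alone). The isoprenoid branch, which makes dolichol and ubiquinone tails and attaches prenyl groups to proteins, had 8 of 16 genes below 0 and a median of 0.00. Pdss1, of ubiquinone tail synthesis, had 58.5 and 45.6 CPM without asparagine, against 44.5 and 34.9 CPM with it (0.39, adjusted p = 0.283). Differences between the lists were not tested.

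**Figure D4:**
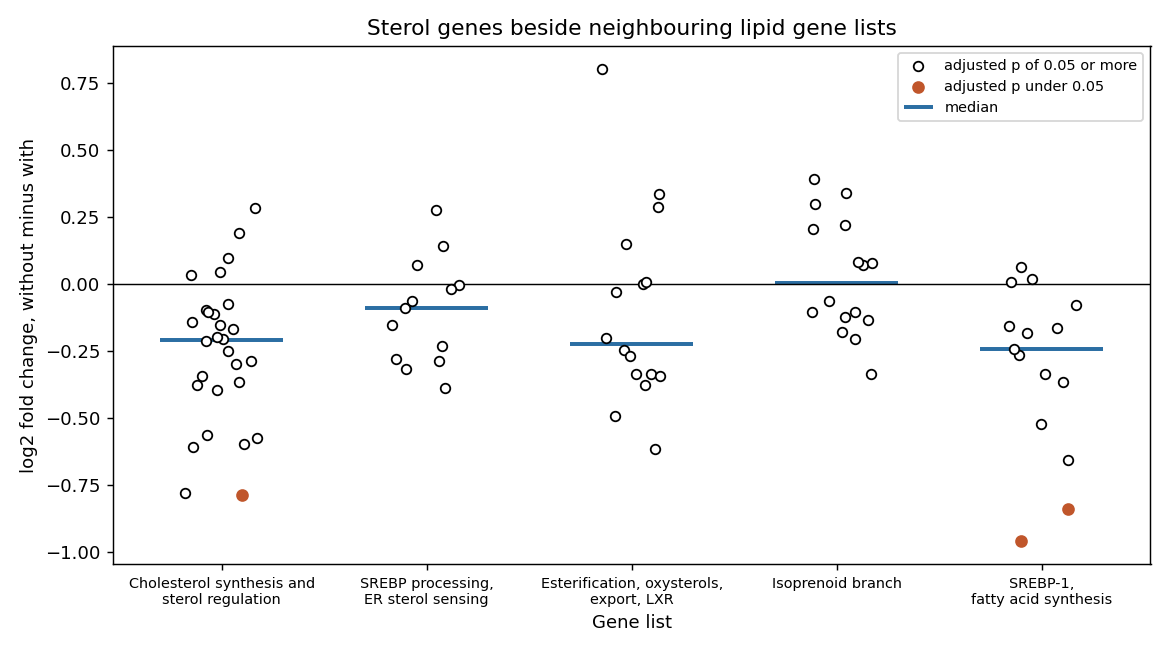
Log2 fold change, without minus with asparagine, of each tested gene in the sterol list and 4 neighbouring lists, with the median of each as a line (-0.21, -0.09, -0.22, 0.00 and -0.24 from left to right). Filled points are genes with an adjusted p under 0.05, Lpin1 in the first list and Scd1 and Scd2 in the last.

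Exons of 7 members overlap exons on the opposite strand in GENCODE M21, so their counts may hold reads of the partner. These were Hmgcs1, Idi1, Fdft1, Lss, Cyp51, Scap and Npc1. Exons of Fdps and Tm7sf2 overlap those of a gene on the same strand, by 1124 of 1453 exon bases in Fdps and by 14 of 1694 in Tm7sf2.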

How the data were processed

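Total RNA was prepared with a Qiagen kit and libraries with NuGEN Ovation RNAseq V2, per the labels' protocols. Bowtie2 and HTSeq were run on build mm10, per the submitters' processing notes. Versions, settings, annotation and strand use were not given in the sources used here. What the authors deposited were raw read counts per gene symbol, as whole numbers. The 5 HTSeq summary rows took 60.1% to 70.0% of all reads and entered neither library sizes nor tests.

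Genes passing filterByExpr (minimum count 10, minimum total 15), 12843 in all, were TMM-scaled and tested with edgeR 4.0.16 (glmQLFit, glmQLFTest) on 4 libraries, with Benjamini-Hochberg adjustment over all genes and a threshold of 0.05. Fold changes were without minus with asparagine. The SE was worked back from the test as the fold change divided by the square root of F. The common biological coefficient of variation was 11.2%. Member counts per library were between 46 and 7089. Chi-square per degree of freedom between libraries was 34.8 without and 3.89 with asparagine, so none was deposited more than once. The script was tested on simulated data.

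Members and lists were chosen with earlier results of these data known. All 28 members were open to naming. In the other lists, called genes were named, or, failing that, the gene with the smallest p. Alternatives were DESeq2 1.42.0 (test, and size factors in edgeR), upper quartile scaling, limma-voom (limma 3.58.1), no low-count filter, the letter as a block, 5 CPM in 2 libraries, the 10 most abundant genes left out, and each library left out.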

Additional observations from a re-analysis of the deposited data

How the results depend on the processing

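Over 12 alternatives, 23 of the 28 members kept their direction in every fit that tested them, 21 of them below 0 and 2 above. The filter of 5 CPM in 2 libraries tested 26 members, leaving out Tm7sf2 and Mylip. No member changed sign with all libraries kept. Signs changed in leave-one-out fits for 5 members. Without library A without asparagine these were Hmgcs1 (-0.083, with 0.14 as the highest of the 4 fits), Hsd17b7 (0.061, lowest -0.23), Dhcr7 (0.0058, lowest -0.38) and Mylip (-0.24, highest 0.38). Without library B with asparagine it was Ggps1 (-0.010, highest 0.093). Hmgcs1, Mylip and Ggps1 were above 0 with all libraries, and Hsd17b7 and Dhcr7 below.

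Genes called higher and lower over all genes were 99 and 138 with all libraries. DESeq2 gave 193 and 271, and 4 members lower. No low-count filter gave 615 and 719, with 6 members lower, 1 gene lower in SREBP processing, 1 in sterol esterification and LXR and 4 in fatty acid synthesis. The letter as a replicate block gave 344 and 472, with 6 members lower, 1 gene lower in sterol esterification and LXR and 4 in fatty acid synthesis. Leaving out each library gave 24 to 2502 genes higher and 24 to 2861 lower, with 0 to 2 members higher and 0 to 19 lower and a member median between -0.38 and -0.088. It also gave 0 to 1 gene higher and 0 to 5 lower in SREBP processing, 0 to 1 and 0 to 5 in sterol esterification and LXR, 0 to 3 and 0 to 4 in the isoprenoid branch, and 0 to 9 lower in fatty acid synthesis. The cause was not tested.

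Nothing in the labels says that the letters pair libraries, and with 2 pairs the correlation of same-lettered deviations was 0.123 across genes. Upper quartile scaling moved the median of all genes to 0.06 and that of the members to -0.16. Intervals and precision rest on 2 libraries a group.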
